A study of Boehmeria nivea with 18 samples.

Results

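The recurrent circRNAs of ramie stem bark were the 357 circular RNAs, of 5268 in the circRNA table, that were listed with a value in at least 3 of 6 libraries and in at least 1 library of each stem section. They made up 6.78% of the table. They were chosen by these same values, so their levels and section differences are given as a description. The calls of a fit over all circRNAs are printed as counts, and nothing is read from them. Each circRNA is named by its scaffold and its first and last position, as in scaffold31:1294413-1295668. Its span is the distance on the scaffold between these positions, with any introns included.

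Ramie (Boehmeria nivea) is a bast fiber crop, and its fibers lie in the bark. Bark of the cultivar Zhongzhu No. 1 was taken at an age of 40 days from the middle part of the stem (MPS), where the secondary walls of the fiber cells are thickening, and from the top part (TPS). Each section had 3 replicates, with bark from 5 plants collected for the sampling. Small RNA, circRNA and cDNA libraries were made for each replicate of each section. For the small RNA and cDNA libraries the study names 6 RNA samples, and it does not describe circRNA libraries. The study's methods call the replicates biological and say that the stem sections of the plants were mixed, and they give the plants a lower age than the labels do. Because bark is a mixture of cells, fewer cells of a type and less RNA per cell cannot be told apart.

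A circRNA forms when the splicing machinery joins the end of an exon or intron back to a site upstream of it, which leaves a closed ring with no free ends. Such rings are resistant to exonucleases, and sequencing detects them by reads across the back-splice junction. One gene can give several rings when different splice sites are joined, and plant circRNAs are often low in level and particular to a tissue or a library.

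The TPS replicate 1 library stood apart from the others. It listed 60 circRNAs, against 1108 to 1861 in the MPS libraries and 544 and 1489 in the other TPS libraries. Its sum of values was 68593, against 191315 to 312091 in the other 5 libraries. Within each library 99.8% to 100% of the values equalled a whole multiple of a step, rounded to a whole number, with steps of 19.1 to 22.8. The smallest listed value was 2 steps in 5 libraries and 4 steps in TPS replicate 1, so an unlisted circRNA may have had reads below a listing minimum. The cDNA libraries showed the sections less clearly in replicate 1. Cellulose synthase A catalytic subunit 7 (BntWG10007243), a subunit of the enzyme that makes secondary wall cellulose, had 46.4, 151 and 162 FPKM in MPS against 50.9, 10.5 and 10.8 FPKM in TPS. Fasciclin-like arabinogalactan protein 12 (BntWG10001406), a wall glycoprotein of fibers, had 10.5, 39.2 and 42.2 FPKM in MPS against 12.8, 4.56 and 1.45 FPKM in TPS. Replicate 1 of TPS was therefore above replicate 1 of MPS for both fiber markers, and the sections overlapped. Markers of other cell types were low. Like the fiber markers, they were taken from genes the study called as differing between the sections. That they differed was therefore set by the list and says nothing further about cell types. The phloem marker SIEVE ELEMENT OCCLUSION B (BntWG10001436) had 0.49, 1.81 and 2.73 FPKM in MPS against 0.21, 0.05 and 0.02 FPKM in TPS. Of the metacaspase-9 genes, known from dying xylem cells, BntWG10006120 had 0.33, 0.37 and 0.10 FPKM in MPS against 0.93, 0.83 and 2.31 FPKM in TPS, without overlap, and BntWG10002856 had 0, 0.60 and 0.40 FPKM in MPS against 1.04, 0.47 and 2.20 FPKM in TPS. A chlorophyll a-b binding protein of green tissue (BntWG10000221) had 1.99, 0.35 and 0.62 FPKM in MPS against 3.33, 4.41 and 6.09 FPKM in TPS, also without overlap, and a second (BntWG10005528) was listed in MPS replicate 2 alone, at 0.86 FPKM. The part of these library and marker differences in the circRNA values was not tested.

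Recurrence was the exception among ramie circRNAs. Of the 5268, 4282 were listed in 1 library only and 574 in 2 libraries. Another 55 were listed in 3 libraries of a single section, 54 of them in MPS and 1 in TPS, and were not counted as recurrent. Among the 357 recurrent circRNAs, 178 were listed in 3 libraries, 121 in 4, 52 in 5 and 6 in all 6. The most frequent pattern was 2 MPS libraries with 1 TPS library (152 circRNAs), followed by 3 MPS libraries with 1 TPS library (83) and 3 MPS with 2 TPS libraries (46). All 3 MPS libraries listed 135 of the recurrent circRNAs, and all 3 TPS libraries listed 13.

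By library, 207, 300 and 315 recurrent circRNAs were listed in MPS, against 20, 153 and 319 in TPS. TPS replicate 3 thus listed as many as the fullest MPS libraries, while TPS replicate 1 listed 5.60% of them. The TPS side of the selection rested largely on replicate 3, which was the only TPS library for 198 of the 357. Replicate 2 was the only one for 35 and replicate 1 for 2. When the selection was repeated on 5 libraries, it gave 133 circRNAs without TPS replicate 3, 216 without MPS replicate 3 and 228 without MPS replicate 2. Without TPS replicate 1 it gave 354.

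Few in number, the recurrent circRNAs held about as much value as all others together. They carried 45.4%, 52.8% and 47.9% of the summed circRNA value of the MPS libraries (48.7% ± 3.76, SD, n = 3), against 52.9%, 62.9% and 63.8% in the TPS libraries (59.9% ± 6.08, SD, n = 3). The lowest TPS share lay just above the highest MPS share. Since listing in more libraries favours circRNAs of high value, these shares are partly set by the selection. The median value of a listed recurrent circRNA was 191, 216 and 218 in MPS against 980, 353 and 177 in TPS. That of the other listed circRNAs was 76, 59 and 60 in MPS against 626.5, 177 and 66 in TPS.

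**Figure D1:**
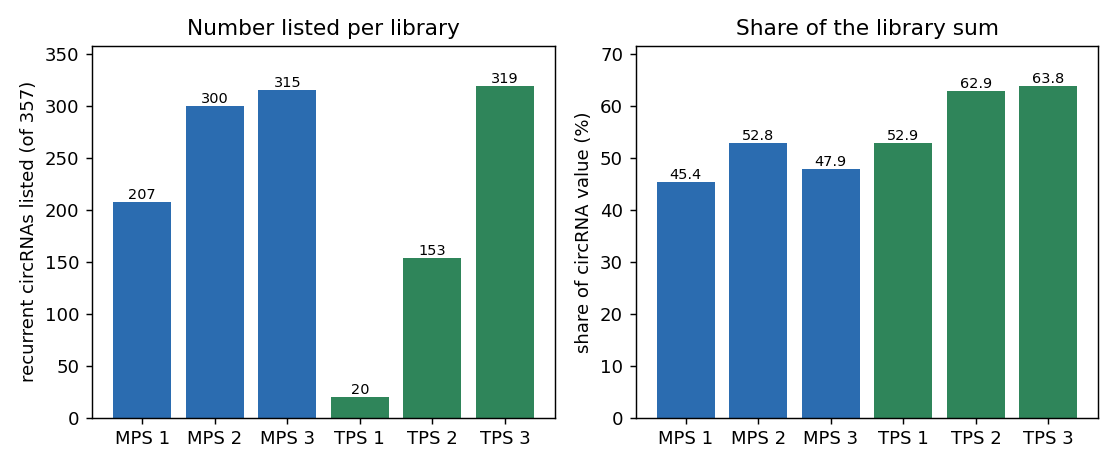
Bars give, for each circRNA library, the number of the 357 recurrent circRNAs listed (left) and their share of the summed circRNA value in percent (right). MPS libraries are blue and TPS libraries green. TPS replicate 1 listed 20 of them, and its share of value, 52.9%, was in the range of the other libraries.

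At the threshold of the selection, the circRNA of highest mean just inside was scaffold68:809307-821399, with 631, 0 and 0 in MPS against 11211, 0 and 4741 in TPS. Just outside stood scaffold5:3497303-3497638, with 0, 0 and 40 in MPS against 2803, 0 and 0 in TPS. The other kind of near miss was listed in 3 libraries of 1 section, and its highest was scaffold7:2328081-2328970, with 592, 137 and 278 in MPS and no value in TPS. The median mean over 6 libraries was 89.6 for the 178 just inside, 32.8 for 279 circRNAs listed once in each section, and 62.2 for the 55 of a single section.

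The recurrent circRNAs ranged from 20.2 to 16454 in mean value over the 6 libraries, with a median of 131.5. Means reached 1000 for 18 of them and stayed under 100 for 128. A few rings dominated the TPS libraries more than the MPS libraries. The 3 highest recurrent circRNAs of a library held 24.0%, 16.1% and 9.94% of the recurrent value in MPS, against 46.3%, 49.7% and 41.8% in TPS. Such a share depends on how many are listed, which was 207, 300 and 315 in MPS against 20, 153 and 319 in TPS.

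The ring of highest mean was scaffold1366:8547-8765, which spans only 219 nt. Its values were 14046, 10170 and 0 in MPS against 0, 50825 and 23684 in TPS, so that it was either high or not listed in both sections. The next, scaffold35:611453-611654, spans 202 nt and had 1357, 1489 and 1072 in MPS against 0, 17744 and 29466 in TPS. Its MPS values were close to each other (1306 ± 213, SD, n = 3), and its TPS values lay both below and far above them. The third, scaffold1257:990-26901, spans 25912 nt and had 936, 2567 and 1945 in MPS against 479, 6930 and 30109 in TPS. All 3 libraries of both sections listed it, and the TPS values lay on either side of the MPS values.

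Next in mean came a circRNA with its higher values in MPS, scaffold31:1294413-1295668 (1256 nt), with 3899, 6760 and 4128 in MPS against 0, 309 and 4010 in TPS. The TPS replicate 3 value reached into the MPS range, and the log2 difference of MPS minus TPS, on log2(value + 19), was 4.03 (SE 2.13). For scaffold3:4634643-4636246 (1604 nt) the values were 1854, 5056 and 3036 in MPS against 0, 463 and 1086 in TPS. Here the sections did not overlap, and the log2 difference was 3.83 (SE 1.89). On scaffold1, the ring 7153527-7163508 (9982 nt) had 2160, 2743 and 1707 in MPS against 0, 2317 and 7289 in TPS. Its mean was 2203 in MPS against 3202 in TPS. The log2 difference was 1.67 (SE 2.33), opposite in sign to the means, with the 0 of TPS replicate 1 included, and -0.92 without that library.

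**Figure D2:**
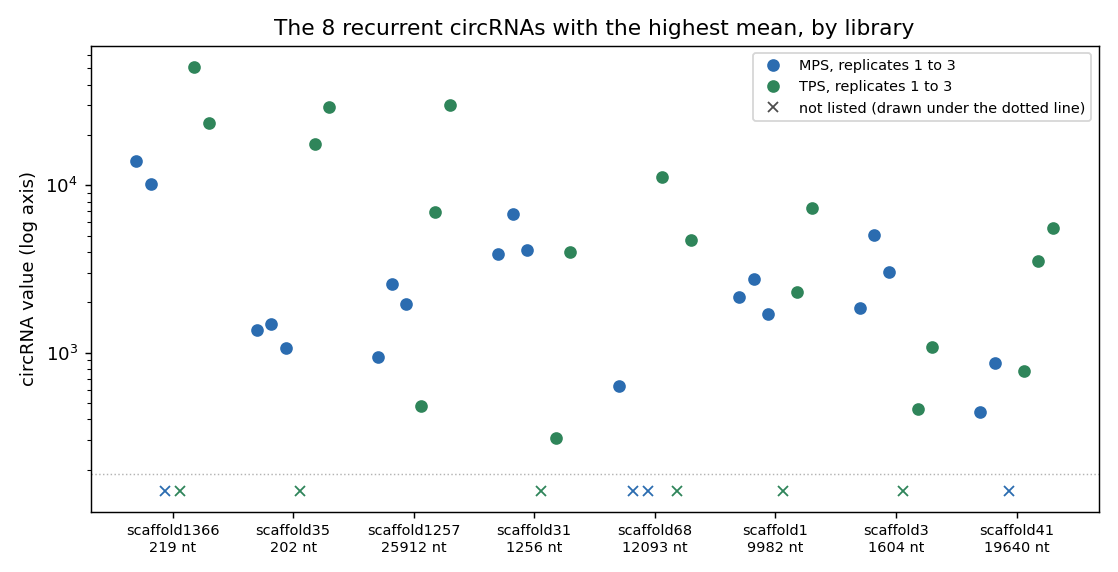
Points give the value in each library (log axis) of the 8 recurrent circRNAs of highest mean, labelled by scaffold and span; MPS libraries are blue and stand left of the TPS libraries in green. Crosses under the dotted line stand for libraries that did not list the circRNA, and TPS replicate 1 did not list 5 of the 8.

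Only 6 circRNAs of the whole table were listed in every library, and all belong to the recurrent set by its definition. Besides scaffold1257:990-26901 they were 4 short rings and 1 long one. On scaffold244, the ring 79472-79799 had 153, 1254 and 1330 in MPS against 3076, 1479 and 886 in TPS. From the same start, the ring 79472-79814 had 325, 843 and 1806 in MPS against 1550, 1015 and 1152 in TPS. The sections of both overlapped, and without MPS replicate 1 the log2 difference of the longer of the pair, -0.60 (SE 1.54), was 0.02. The ring scaffold17:1745536-1745872 had 115, 353 and 615 in MPS against 661, 375 and 554 in TPS, also with overlap.

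The remaining pair had lower values in every MPS library than in any TPS library. For scaffold19:527042-575678, a span of 48637 nt, they were 172, 157 and 179 in MPS (169 ± 11.2, SD, n = 3) against 1117, 1037 and 1972 in TPS (1375 ± 518, SD, n = 3). The log2 difference was -2.83 (SE 1.35). This was also the ring with the closest agreement between MPS replicates among the 6. For scaffold72:898098-898464, a span of 367 nt, the values were 38, 78 and 99 in MPS against 2119, 530 and 222 in TPS, a log2 difference of -2.92 (SE 1.38).

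Across the recurrent circRNAs, the mean was higher in MPS for 254 and lower for 102. Both counts include the zeros of TPS replicate 1. Without that library, 207 were higher in MPS and 150 lower. With values scaled to equal library sums, 261 were higher. On the log2 scale the difference was positive for 288 and negative for 69, with a median of 1.07, beside 342 and 70 with a median of 1.29 for all 412 circRNAs in the fit. The size of this median moved with single libraries. Over the recurrent circRNAs still listed in 3 libraries it was 0.50 without TPS replicate 1, 1.10 without TPS replicate 2 and 2.08 without TPS replicate 3, and 1.85, 1.76 and 1.73 without MPS replicates 1, 2 and 3. With a pseudocount of 1 it was 2.44.

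With limma, at a log2 difference of at least 1 and an adjusted p below 0.05, 0 recurrent circRNAs were higher and 0 lower in MPS. Among all 412 circRNAs the calls were also 0% higher and 0% lower. At an unadjusted p under 0.05 the same limma fit had 28 recurrent circRNAs higher and 1 lower in MPS, of 82 and 2 among the 412. The 82 include the 54 circRNAs listed in MPS alone, and the 2 include the 1 listed in TPS alone. Without TPS replicate 3, 80 recurrent circRNAs were called higher and 3 lower, of 131 and 3 among the circRNAs then in the fit. That fit held 162 recurrent circRNAs with a positive and 47 with a negative difference. TPS replicate 3 was the only TPS library for 198 of the 357, and those of them in that fit had only zeros in TPS. Nothing is read from these calls.

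The values of all 3 MPS libraries lay above those of all 3 TPS libraries for 39 recurrent circRNAs, and below them for 5. Of all 412 circRNAs, 22.6% lay above and 1.46% below, where the first share includes the 54 that were listed in MPS alone and could not overlap. None of the 39 was listed in TPS replicate 1. The circRNA scaffold20:930522-931803 (1282 nt) had 2484, 2175 and 2262 in MPS against 0, 0 and 997 in TPS, and its log2 difference was 5.02 (SE 1.84). With 1204, 1568 and 1667 in MPS against 0, 0 and 753 in TPS, scaffold24:2177506-2178697 (1192 nt) had a log2 difference of 4.51 (SE 1.74). With 516, 647 and 873 in MPS against 0, 0 and 44 in TPS, scaffold22:2902269-2903224 (956 nt) had one of 4.59 (SE 1.21). In each of these the MPS libraries were near one another and TPS replicate 3 alone of the TPS libraries listed the ring.

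Further rings of this shape were scaffold7:415458-416453 (996 nt), with 707, 1548 and 992 in MPS against 0, 0 and 532 in TPS, and scaffold64:907146-908542 (1397 nt), with 650, 745 and 635 in MPS against 0, 0 and 133 in TPS. The short ring scaffold12:1548898-1549305 (408 nt) had 497, 3057 and 5457 in MPS against 0, 0 and 1573 in TPS. It had one of the largest log2 differences, 4.63 (SE 2.06), although TPS replicate 3 exceeded MPS replicate 1.

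The 5 rings whose MPS values all lay below the TPS values included scaffold19:527042-575678 and scaffold72:898098-898464, given above. The others were scaffold162:141477-172817 (31341 nt), with 153, 0 and 60 in MPS against 684, 971 and 753 in TPS, scaffold98:110897-138942 (28046 nt), with 287, 0 and 278 in MPS against 547, 684 and 731 in TPS, and scaffold244:79483-79792 (310 nt), with 0, 725 and 456 in MPS against 1937, 905 and 753 in TPS. By this definition each of them had a value in TPS replicate 1. Of the 5, 3 span 28046 nt or more and the other 2 span 310 and 367 nt.

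Span was not used in the selection. The recurrent circRNAs spanned 182 to 97070 nt, with quartiles of 465, 746 and 1431 nt, against quartiles of 442, 710 and 1210.5 nt for the 4911 other circRNAs. Spans of at most 500 nt were found in 29.1% of the recurrent and 31.5% of the other circRNAs. Spans of 10000 nt or more were found in 21 of 357 (5.88%) against 128 of 4911 (2.61%). All 21 were listed in TPS replicate 3, the only TPS library for 198 of the 357. Of the 128, 29, 26 and 15 were listed in MPS against 3, 14 and 69 in TPS. The selection thus leaned on the library that listed the most long circRNAs. These differences were not tested.

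The long circRNAs are described by the same values that chose them, with a span limit set after earlier results were known, and the difference from the shorter ones was not tested. Among the 21, the mean was higher in TPS for 16 and in MPS for 5, and the 16 became 13 to 18 when each library was left out in turn, with 13 without TPS replicate 3. On log2(value + 19) the split was narrower, with 13 lower and 8 higher in MPS. Lower were 16 without TPS replicate 1 and 11 without TPS replicate 2 or 3. In the other span classes most were higher in MPS: 101 of the 120 circRNAs of 506 to 996 nt, 85 of the 112 of 1026 to 9982 nt, and 63 of the 104 of at most 500 nt. These counts include the zeros of TPS replicate 1, which listed 1, 1 and 12 of them. They were not computed without that library, where the count over all recurrent circRNAs fell from 254 to 207. In TPS replicate 3, 16 of the 21 long circRNAs (76.2%) exceeded all 3 MPS libraries, against 68 of the 336 shorter ones (20.2%). In TPS replicate 2 it was 11 of 21 (52.4%) against 74 of 336 (22.0%).

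**Figure D3:**
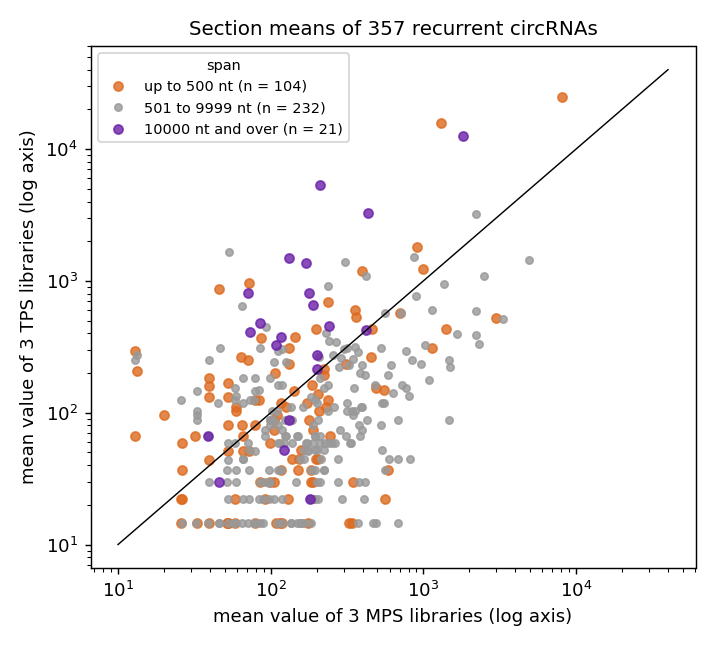
Each point is 1 of the 357 recurrent circRNAs, with its mean over 3 MPS libraries across and over 3 TPS libraries upward (log axes, unlisted values as 0). The line marks equal means. Of the 21 circRNAs with spans of 10000 nt or more (purple), 16 lie above it.

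The long circRNAs held 5.35%, 4.39% and 3.83% of the recurrent value in the MPS libraries, against 40.9%, 12.05% and 27.7% in the TPS libraries. All TPS shares were thus above all MPS shares. Without scaffold1257:990-26901, the largest of them, left out of the class and of the total, the shares were 4.32%, 2.56% and 2.33% in MPS against 40.1%, 7.85% and 14.9% in TPS, and the sections were still apart. In TPS replicate 1 that ring had only 479, and scaffold68:809307-821399 had 11211 of the 14813 held by long circRNAs. Shares without scaffold68:809307-821399 were not computed. The long circRNAs outside the recurrent set, which are other rings of the same libraries, held 5.21%, 2.48% and 1.09% of the value of all non-recurrent circRNAs in MPS against 5.57%, 6.14% and 18.8% in TPS. There the TPS shares were again the higher, by the least in replicate 1.

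Rings of intermediate span held larger shares in MPS. Those of 506 to 996 nt held 22.4%, 26.2% and 31.9% of the recurrent value in MPS against 5.41%, 12.02% and 11.4% in TPS. Those of 1026 to 9982 nt held 43.6%, 41.9% and 38.3% in MPS against 6.72%, 17.0% and 24.7% in TPS. Rings of at most 500 nt held 28.6%, 27.5% and 25.9% in MPS against 47.0%, 58.9% and 36.1% in TPS. Without scaffold1366:8547-8765 in class and total, their share was 14.9%, 21.7% and 25.9% in MPS against 47.0%, 38.3% and 27.5% in TPS. The lowest TPS share was then close to the highest MPS share. The short ring scaffold35:611453-611654, with 1357, 1489 and 1072 in MPS against 0, 17744 and 29466 in TPS, was kept. All classes share the same total, so very high TPS values of a few rings lower the other shares there. Intermediate shares without the largest short and long rings were not computed. Whether the contrast belongs to the span classes or to a few rings was not tested.

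**Figure D4:**
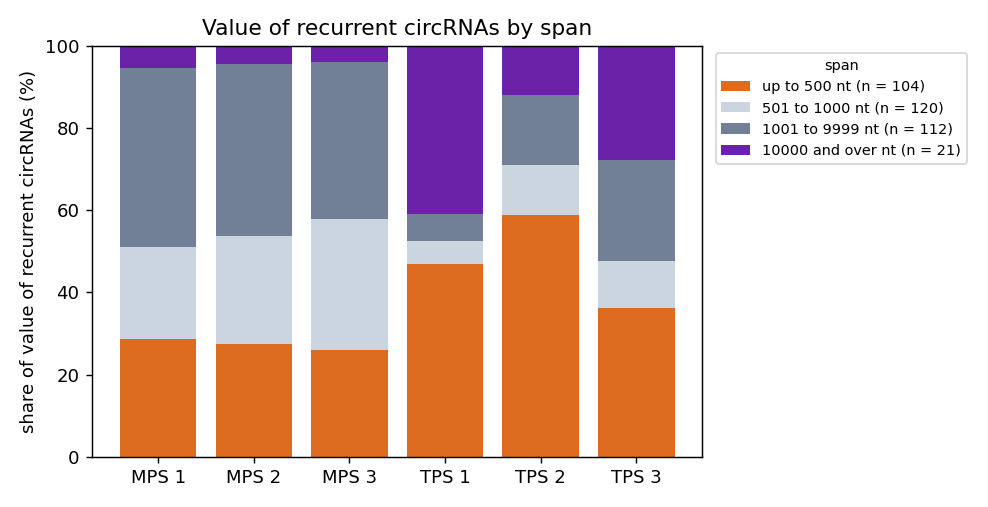
Stacked bars give, for each library, the share in percent of the value of recurrent circRNAs that fell in each of 4 span classes. The long class (purple) held 3.83% to 5.35% in MPS and 12.05% to 40.9% in TPS.

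Several long circRNAs had large TPS values. For scaffold41:409431-429070 (19640 nt) they were 440, 862 and 0 in MPS against 775, 3531 and 5583 in TPS, with a log2 difference of -3.67 (SE 1.90), and MPS replicate 2 exceeded TPS replicate 1. For scaffold68:809307-821399 (12093 nt), given above at the threshold, the log2 difference was -4.03 (SE 2.57), with values in 1 MPS and 2 TPS libraries. The ring scaffold11:3133355-3176469 (43115 nt) had 96, 0 and 298 in MPS against 0, 706 and 3766 in TPS. There the 2 listed TPS values exceeded every MPS value, and TPS replicate 1 had none.

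The long rings were not uniform. For scaffold110:48152-61181 (13030 nt) the values were 191, 196 and 159 in MPS against 0, 0 and 66 in TPS, the opposite section pattern. The longest recurrent circRNA, scaffold66:973915-1070984 (97070 nt), was low in both, with 38, 0 and 79 in MPS against 0, 110 and 89 in TPS. Nearly level section means were seen for scaffold72:740343-775837 (35495 nt), with 420, 745 and 99 in MPS against 0, 66 and 1196 in TPS. Large TPS values also occurred in a ring under 10000 nt, scaffold6:4831008-4835181 (4174 nt), with 0, 0 and 159 in MPS against 0, 1788 and 3190 in TPS and a log2 difference of -3.58 (SE 2.08).

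The 20 recurrent circRNAs of TPS replicate 1 came mainly from the ends of the span range. Of the 40 other circRNAs in that library, 19 spanned at most 500 nt and 3 at least 10000 nt, with 9 in each class between. Of the 20 recurrent ones, 12 spanned at most 500 nt and 6 at least 10000 nt, with 1 in each class between. The ring scaffold44:467173-472274 (5102 nt) was one of these, with 707, 216 and 0 in MPS against 2438, 1589 and 133 in TPS. The ring scaffold51:1179089-1179389 (301 nt) had 0, 39 and 99 in MPS against 2507, 0 and 89 in TPS. In that ring the library with few circRNAs alone had a high value.

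The recurrent circRNAs lay on 106 of the 290 scaffolds with a circRNA and, when overlapping ones were joined, in 309 loci. Of these loci, 278 held a single recurrent circRNA, 25 held 2 and 6 held 3 or more, so that 79 circRNAs shared a locus with another. Overlapping rings share sequence, so their values are not independent. No gene was assigned, as the table gives positions without genes and no genome annotation was used here.

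Some rings shared one side of the junction and differed in the other. The files give positions without strand, so start and end refer to the scaffold. At 16 start positions 2 or more recurrent circRNAs began, 40 circRNAs in all, and at 8 end positions 2 ended, 16 circRNAs in all. The busiest start, position 12591 of scaffold360, was shared by 8 circRNAs with ends between 12947 and 13246. Scaffold360 had 2.70 circRNAs per kb between its first and last listed positions, against 0.0168 on scaffold31. Whether ends this close together are separate junctions was not tested. None of the 8 was listed in TPS replicate 1 or 2. The most even of them, scaffold360:12591-12947 (357 nt), had 115, 157 and 139 in MPS against 0, 0 and 133 in TPS. The highest, scaffold360:12591-13113 (523 nt), had 420, 588 and 159 in MPS against 0, 0 and 332 in TPS. The mix of ends changed between libraries of 1 section: scaffold360:12591-13146 (556 nt) had 478, 0 and 40 in MPS against 0, 0 and 177 in TPS, while scaffold360:12591-13177 (587 nt) had 115, 411 and 79 in MPS against 0, 0 and 155 in TPS.

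**Figure D5:**
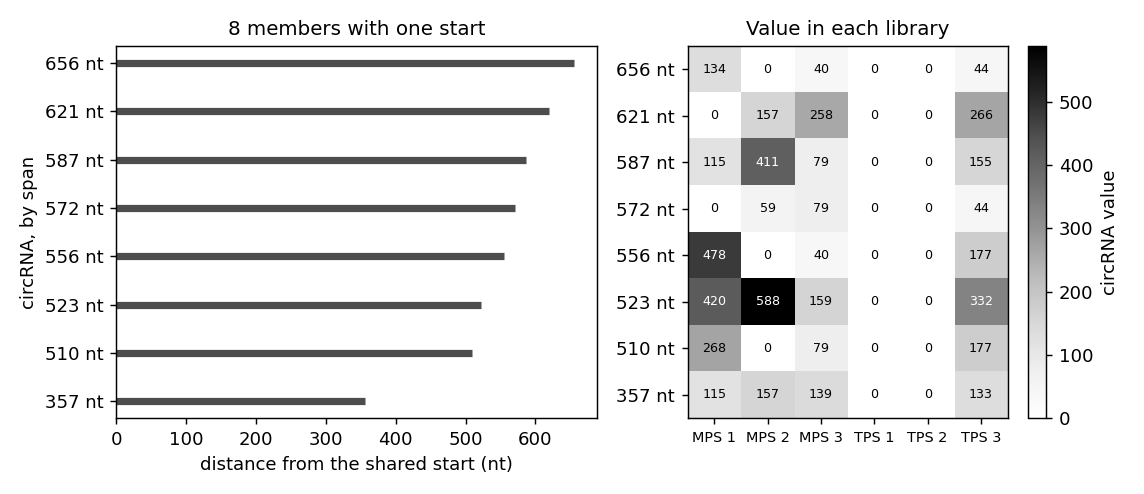
Left, the 8 recurrent circRNAs of scaffold360 that share a start, drawn to scale as distance from it in nt. Right, the value of each in every library, darker for higher. All values of TPS replicates 1 and 2 are 0, and the highest value, 588, is that of the 523 nt ring in MPS replicate 2.

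The locus of highest mean with alternative ends was that of scaffold31:1294413-1295668. A longer ring from the same start, scaffold31:1294413-1295915 (1503 nt), had 669, 2273 and 1131 in MPS against 0, 728 and 2127 in TPS. It held 14.6%, 25.2% and 21.5% of the summed value of the pair in MPS against 70.2% and 34.7% in TPS replicates 2 and 3. The longer ring thus took a larger part in both TPS libraries that listed the pair than in any MPS library. At the start 1745536 of scaffold17 the order was the other way. The longer ring, scaffold17:1745536-1746100 (565 nt), had 325, 294 and 1151 in MPS against 0, 0 and 576 in TPS, or 73.9%, 45.4% and 65.2% of its pair in MPS against 0%, 0% and 51.0% in TPS. These shares overlapped between the sections.

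At the end 2551389 of scaffold5 the ring listed differed between libraries. The longer ring, scaffold5:2550623-2551389 (767 nt), had 268, 803 and 1349 in MPS against 0, 0 and 399 in TPS. The shorter, scaffold5:2550781-2551389 (609 nt), had 96, 157 and 456 in MPS against 1960, 794 and 0 in TPS. All MPS libraries listed both rings, with the longer at 73.6% to 83.6% of the pair, while each TPS library listed 1 ring only. TPS replicate 3 listed the longer ring and the other TPS libraries the shorter.

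At the start 2726216 of scaffold3, 3 ends were used. The longest ring, scaffold3:2726216-2727513 (1298 nt), had 191, 960 and 754 in MPS against 0, 0 and 421 in TPS. The shortest, scaffold3:2726216-2727000 (785 nt), had 0, 0 and 139 in MPS against 0, 794 and 133 in TPS. TPS replicate 2 listed the shortest ring alone. At the start 1340505 of scaffold31, the longer ring 1340505-1341010 (506 nt) had 956, 764 and 437 in MPS against 0, 486 and 0 in TPS, and the shorter, 1340505-1340828 (324 nt), had 0, 196 and 198 in MPS against 0, 706 and 0 in TPS. In the single TPS library that listed this pair the shorter ring was the higher, and in all MPS libraries the longer.

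The locus of 5 rings on scaffold244, between 79472 and 79814, was the only one of the 3 fullest loci with values in all libraries. Its rings summed to 478, 2939 and 3751 in MPS against 6563, 3553 and 2902 in TPS. MPS replicate 1 was low and TPS replicate 1 high, and the other 4 libraries lay close together. Of the pair from start 79472, the shorter ring held 32.0%, 59.8% and 42.4% in MPS against 66.5%, 59.3% and 43.5% in TPS, so that these shares overlapped between the sections. Like scaffold360, scaffold244 held many circRNAs for its length, at 1.55 per kb.

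Overlap between libraries was as large across sections as within them for some pairs. MPS replicates 2 and 3 shared 259, or 86.3% of the first and 82.2% of the second. MPS replicate 3 and TPS replicate 3 shared 281, or 89.2% and 88.1%. TPS replicates 2 and 3 shared 117, or 76.5% and 36.7%. Since the selection required both sections and TPS replicate 3 supplied most of the TPS listings, the overlaps depend on it.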

How the data were processed

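The circRNA signal values were used as the authors deposited them, in 1 table of 6 libraries with 0 columns of no sample. The sources used here do not give the steps that made them. Within each library 99.8% to 100% of values were whole multiples of 1 step to within rounding, but reads were not recovered and no count test was run. FPKM values of the cDNA libraries were calculated by the authors after alignment with Bowtie2 and RSEM, with transcripts under 0.01 FPKM not listed; they served only for the marker check, whose genes come from a list of genes the study called as differing. Gene IDs were matched by number. Small RNA positions (other values) were deposited by the authors as predicted precursors.

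The members and lists were chosen with earlier results of these data known. Samples were grouped by the section in their labels, and unlisted values were set to 0. limma 3.58.1 (trend) in R 4.3.3 was fitted on log2(value + 19), 0.5 times the smallest value of 38, for 412 circRNAs listed in at least 3 libraries, with Benjamini-Hochberg adjustment, after a test on simulated data. Values were not scaled between libraries. Fold changes of low circRNAs are understated on this scale. The circRNAs described were those in all 6 libraries, the 8 of highest mean, the 4 largest log2 differences each way, up to 5 without overlap each way and those at the threshold. Rings named for a span, a shared junction or TPS replicate 1 were chosen after their values were seen. Python 3.11.15, numpy 2.4.6, pandas 2.3.3 and matplotlib 3.10.9 were used. Other pseudocounts, scaling, filters, a replicate block and leaving out each library were tried. The planned comparison with host genes was not run, as no annotation linked positions to genes.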

Additional observations from a re-analysis of the deposited data

How the results depend on the processing

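Of all 412 circRNAs, 0 were called by limma, with the lowest adjusted p at 0.0944 and 84 at an unadjusted p under 0.05, 29 of them recurrent. With a pseudocount of 1, 55 were called, 54 higher and 1 lower in MPS, and 0 of them recurrent; 55 circRNAs of the fit were listed in a single section. Leaving out each library in turn gave 0 to 134 calls among all circRNAs and 0 to 83 among the recurrent ones, with calls only without TPS replicate 3, where 2 TPS libraries remained. Over all alternatives the lowest adjusted p of limma among recurrent circRNAs ranged from 0.0128 to 0.581. The other settings, scaling to equal sums, steps in place of values (chosen after seeing the data), the larger pseudocount, both filters and no fold threshold, called 0. The share of value in recurrent circRNAs was 52.9% in MPS and 66.5% in TPS when 2 libraries sufficed (636 circRNAs), and 39.4% in MPS and 47.6% in TPS when 4 were required (179 circRNAs). Leaving out a replicate gave 46.7% to 50.4% in MPS and 57.9% to 63.4% in TPS. Repeated selections without a library, and the values without the largest ring of a span class or on the log2 scale for long rings, were also chosen after seeing the data.

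With the replicate block the fit called 0, among all and among recurrent circRNAs. Same-numbered libraries deviated together with r of 0.0952, -0.0466 and -0.118 across circRNAs, and not every library correlated best with its own number. With few replicates and many unlisted values, these r values cannot decide whether same-numbered samples came from the same plants.

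Of the log2 differences of the 23 circRNAs chosen by rule, 8 of 314 alternative values had the other sign, in 4 circRNAs. For scaffold1366:8547-8765 the difference was -1.02, and 2.08, 1.06 and 0.51 without MPS replicate 3, TPS replicate 2 and TPS replicate 3. For scaffold35:611453-611654 it was -0.71, and 0.68 with a pseudocount of 1, 0.81 without TPS replicate 2 and 1.18 without TPS replicate 3. The other 2 are given with their circRNAs above. The settings listed for host genes were not run. Depth in reads is unknown, and unlisted values in TPS replicate 1 limit every TPS mean.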

Other observations

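On 5 scaffolds with at least 20 circRNAs and 1 or more per kb, a limit chosen after the values were seen, 37 of 1037 circRNAs (3.57%) were recurrent, against 320 of 4231 (7.56%) elsewhere. On scaffold365, 152 circRNAs were listed and 0 were recurrent. On scaffold360, 18 of 202 were (8.91%), above the share elsewhere. The difference was not tested.

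A pair on scaffold15 had the same span of 12462 nt with an offset of 369 nt. The ring 2883300-2895761 had 115, 353 and 139 in MPS against 0, 353 and 288 in TPS, and the ring 2882931-2895392 had 0, 0 and 218 in MPS against 0, 199 and 1019 in TPS.

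Counted in steps, even values outnumbered odd ones in 5 libraries. The even share of listed circRNAs was 63.7%, 70.9% and 70.6% in MPS against 46.7%, 57.2% and 73.7% in TPS. The smallest value, 2 steps, alone made up 23.3%, 39.5% and 34.6% of listed circRNAs in MPS against 0%, 4.23% and 42.3% in TPS.

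Of 202 predicted miRNA precursor positions on the same scaffold names, 4 overlapped a circRNA. Such an overlap was found for 5 of all 5268 circRNAs and for 0 of the 357 recurrent ones. With only 5 in all, the 0 says nothing about the recurrent set. A scaffold with such a position held 247 of the recurrent circRNAs. The methods name a ramie genome for the cDNA reads and do not say whether the circRNA positions refer to it.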
